A study of Mus musculus with 143 samples.

Results

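The 10 genes described here, Tyr, Tyrp1, Dct, Pmel, Mlana, Mitf, Sox10, Slc45a2, Gpr143 and Oca2, make and regulate melanin pigment, and were chosen by their mouse symbols from the 54232 Ensembl gene IDs of the expression table. The study sequenced total RNA of subcutaneous tumours grown in mice from 11 syngeneic cell lines, to look for what distinguishes tumours that respond to blockade of PD-1, an inhibitory receptor of T cells. In each model, 5 tumours came from mice given muDX400, an anti-PD-1 antibody, on days 11 and 15 after implantation and 5 from mice given an isotype control antibody, mIgG1, on the same days; both sets were excised on day 19, called 8 days of treatment. Another 3 tumours per model were untreated baseline tumours. The genes were followed in CM3, a line labelled a high responder to anti-PD-1, and in B16F10, a melanoma line of C57BL/6 mice labelled resistant, with 13 tumours each. The other 9 models, 4T1, CT26, EMT6, LL2, MB49, MBT2, MC38, RENCA and TC1, with 117 tumours, served as background. The labels give neither the tissue of origin of CM3 nor the strain or age of the mice, and they describe each tumour as grown from an injected cell suspension of an established line. Each library was taken as a separate tumour. The labels do not say so outright, so the p-values measure the spread between libraries.

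Melanin is made in melanosomes, lysosome-related organelles of melanocytes, the pigment cells that arise from the neural crest. Tyrosinase oxidises tyrosine, its relatives Tyrp1 and Dct act on later intermediates, and the fibrils on which melanin is laid down are built from Pmel. Transporters and a receptor of the melanosome membrane set its acidity, size and substrate supply, while the transcription factors Sox10 and Mitf switch on most of these genes and are needed for melanocytes to survive. The same proteins are known melanoma antigens, several of them recognised by T cells.

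The 3 enzymes are paralogs on different chromosomes that share a regulatory element. On GRCm38 (GENCODE M21 annotation), Tyr (ENSMUSG00000004651) lies at chr7:87424771-87493512 on the minus strand, Tyrp1 (ENSMUSG00000005994) at chr4:80834123-80851719 on the plus strand and Dct (ENSMUSG00000022129) at chr14:118012790-118052244 on the minus strand, and all 3 are protein coding. The 250 bases before the RefSeq start of each are shown because the longest run of letters common to all 3, printed in capitals, holds CATGTG, the core of the M-box through which MITF is known to act on these genes. The windows, from RefSeq on GRCm38.p6 and written 5′ to 3′ on the strand of the gene, are chr7:87493513-87493762 (minus) for Tyr, chr4:80833963-80834212 (plus) for Tyrp1 and chr14:118052247-118052496 (minus) for Dct.

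Tyr: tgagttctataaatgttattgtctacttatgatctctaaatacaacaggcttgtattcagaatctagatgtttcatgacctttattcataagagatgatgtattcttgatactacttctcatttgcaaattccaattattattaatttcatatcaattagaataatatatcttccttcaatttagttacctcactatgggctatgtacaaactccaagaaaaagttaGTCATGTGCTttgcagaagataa

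Tyrp1: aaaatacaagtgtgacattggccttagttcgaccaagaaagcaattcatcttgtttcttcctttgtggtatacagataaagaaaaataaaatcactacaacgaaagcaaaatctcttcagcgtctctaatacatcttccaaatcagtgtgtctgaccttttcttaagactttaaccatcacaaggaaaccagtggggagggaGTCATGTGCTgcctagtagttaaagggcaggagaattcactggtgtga

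Dct: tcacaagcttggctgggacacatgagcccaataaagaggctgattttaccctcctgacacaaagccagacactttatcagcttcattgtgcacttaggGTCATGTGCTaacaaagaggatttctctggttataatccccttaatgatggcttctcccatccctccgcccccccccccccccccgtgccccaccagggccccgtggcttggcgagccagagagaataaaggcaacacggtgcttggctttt

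The run GTCATGTGCT began 23 bases before the RefSeq start in Tyr, 48 before it in Tyrp1 and 152 before it in Dct. Searched on both strands over the 250 bases before each start, it was present in 51 of 32851 RefSeq promoters (0.155%). The shorter TCATGTG was in 3.25% of them and CATGTG, which both longer motifs contain, in 12.3%, among them the promoter of Oca2. RefSeq promoters were matched for 5 of the 10 genes, the other matches being Mitf, with 3 starts, and Oca2. A match is a description of letters in the window, and the data hold no measurement of binding. The RefSeq start of Tyrp1 lies past the GENCODE start given above, and the run in Tyrp1 falls inside the GENCODE gene.

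**Figure D1:**
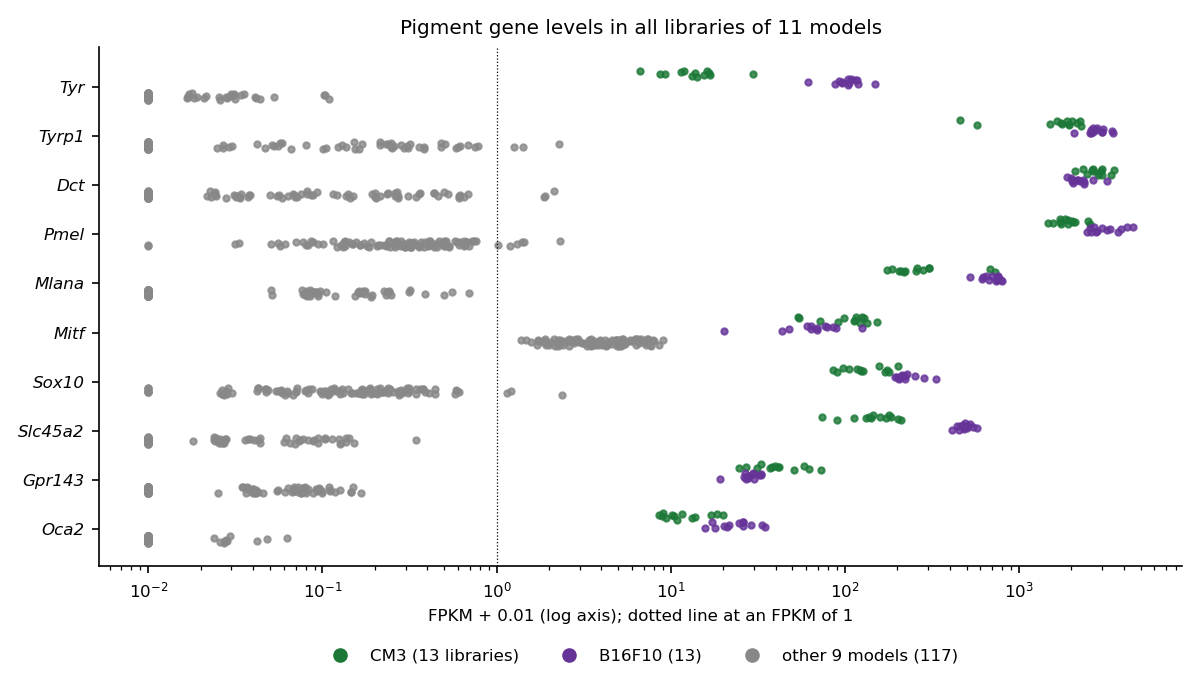
Level of each of the 10 pigment genes in every library, as FPKM + 0.01 on a log axis, by CM3, B16F10 and the other 9 models. In CM3 and B16F10 all 10 genes lie above every library of the other 9 models, where Mitf alone was at or above 1 FPKM in all 117.

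All 10 genes were detected in all 26 libraries of CM3 and B16F10 (the plot of levels in all models). Values are FPKM, fragment counts scaled to transcript length and to the depth of the library, so levels of different genes can be set side by side. Tyrp1, Dct and Pmel lay between 459.9 and 4506.5 FPKM in these 26 libraries, and the 10 genes together made up 1.35% ± 0.129 of the FPKM total in muDX400-treated, 1.08% ± 0.319 in isotype-treated and 1.54% ± 0.160 in baseline CM3 tumours (SD, n = 5, 5 and 3). In B16F10 the same share was 1.74% ± 0.103, 1.87% ± 0.243 and 1.64% ± 0.0622 in the muDX400, isotype and baseline tumours. The FPKM total, by which the share is divided, reached 885333 in CM3, and 554588 without isotype replicates 2 and 3. The summed FPKM of the 10 genes was 5672 to 7838 in isotype-treated and 6147 to 8032 in muDX400-treated CM3 tumours, and 7496 to 9221 at baseline. In bulk tumours, fewer cells of a type and less RNA per cell cannot be told apart. CM3 and B16F10 were set apart with the levels of these genes known, so their levels against the other models are a description only. The 10 genes are defining markers of melanocytes, and the sum of keratinocyte markers reached at most 4.23 FPKM in CM3.

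The order of the levels differed between the models at its top and bottom. In CM3, Dct was the highest by mean in each of the 3 arms, and its values did not overlap those of the next gene; Tyrp1 and Pmel followed, their values overlapping. In B16F10, Pmel or Tyrp1 was the highest and overlapped the other, with Dct next. Mlana, Slc45a2 and Sox10 followed in that order in every group, with overlapping neighbours in some. Slc45a2 and Sox10 overlapped in isotype and baseline CM3 tumours, Sox10 and Mitf in muDX400 and isotype CM3 tumours, and Mlana and Slc45a2 in isotype tumours of both models. Isotype tumours held further overlaps, of Tyrp1 with Mlana, Mitf with Gpr143 and Gpr143 with Tyr in CM3, and of Tyrp1 with Dct and Mitf with Gpr143 in B16F10. In CM3, Mitf and Gpr143 came next and Tyr and Oca2 last, overlapping each other. In B16F10 the mean of Tyr stood above those of Mitf, Gpr143 and Oca2, apart from Mitf in the muDX400 and baseline tumours and overlapping it in the isotype ones.

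Some libraries stood apart by FPKM total or by their slope with transcript length or GC content, all in the isotype arm. Isotype replicates 2 and 3 of CM3 had FPKM totals of 784467 and 885333, against 507254 to 554588 in the other CM3 libraries, and their levels relative to the median of the 13 CM3 libraries fell by 0.33 and 0.37 on the log2 scale with each doubling of transcript length. In B16F10, log2 levels changed by 0.85 in isotype replicate 5, 0.36 in replicate 2 and -0.30 in replicate 4 for each 10 points of GC content, against -0.18 to 0.06 in the other B16F10 libraries. Isotype results were therefore also computed without these libraries, a choice made after the values were seen, and the values are given beside the results they change most. The baseline CM3 tumours also carry sample numbers from another block than the CM3 tumours of the 8-day arms, so block and arm cannot be told apart there, while all B16F10 libraries fall in 1 block. CM3 and B16F10 share no block, so model and block cannot be told apart in any comparison of CM3 with B16F10. Fragment depth, in mega (M) fragments and estimated from the most frequent low value, per length, of genes with 1 annotated transcript of over 1500 bases, was 14.8 to 22.4 M in CM3, 9.77 to 22.4 M in the 8-day B16F10 tumours and 37.2 to 51.3 M in the baseline B16F10 tumours.

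**Figure D2:**
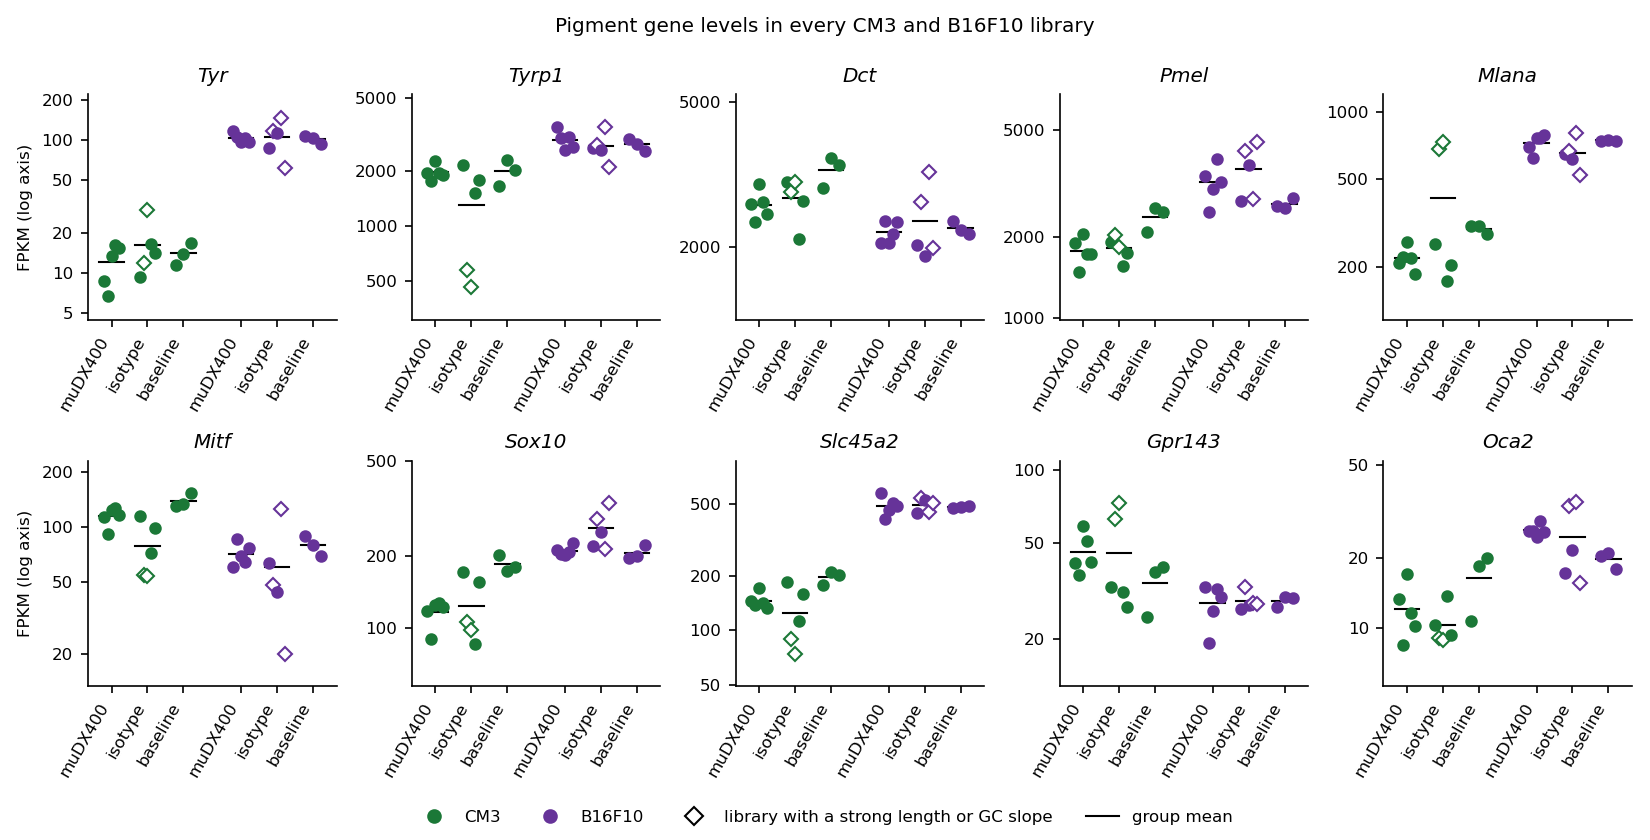
FPKM of each pigment gene on a log axis in every library of CM3 and then B16F10, with the muDX400, isotype and baseline arms from left to right; the line is the group mean and open diamonds mark isotype replicates 2 and 3 of CM3 and 2, 4 and 5 of B16F10. Tyr stays at or below 29.7 FPKM in CM3 and at or above 61.6 FPKM in B16F10, and for most genes the widest scatter is in the isotype arms.

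The first question was how CM3 differs from B16F10 within each arm. Of the 10 genes, 10 differed in the muDX400 arm by limma's moderated test on log2(FPKM + 1) with a Benjamini-Hochberg adjusted p under 0.05, 3 of them higher and 7 lower in CM3. Among all 12929 genes tested in that arm 83.7% were called, 50% higher and 33.7% lower, so a large share of called members is near the background. In the isotype arm 6 were called, all lower (51.7% of all genes were called, 28.4% higher and 23.2% lower), and in the baseline arm 2 were higher and 4 lower (73.9% of all genes, 41.2% higher and 32.7% lower). The median log2 difference over the 10 genes was -0.85 in the muDX400 arm, -1.03 in the isotype arm and -0.23 in the baseline arm, against 0.25, 0.12 and 0.11 over all genes tested. Fold changes on this scale understate the change of low genes.

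Tyrosinase, the enzyme that starts melanin synthesis, showed the widest gap between the models. Tyr had 8.63, 6.65, 13.3, 16.1 and 15.5 FPKM in the muDX400-treated CM3 tumours, against 118, 105, 96.7, 104 and 96.8 FPKM in the muDX400-treated B16F10 tumours. With the isotype antibody the values were 9.25, 11.8, 29.7, 16.6 and 14.2 FPKM in CM3 and 88.1, 118, 114, 148 and 61.6 FPKM in B16F10. At baseline they were 11.5, 13.8 and 16.7 FPKM in CM3 and 108, 104 and 93.2 FPKM in B16F10. Every CM3 tumour was below every B16F10 tumour in each arm. The log2 difference was -3.08 ± 0.20 in the muDX400 arm, -2.67 ± 0.31 in the isotype arm and -2.79 ± 0.13 at baseline (± SE), with adjusted p-values of 3.65e-08, 2.75e-05 and 2.62e-06. As a share of the summed FPKM of the 10 genes, Tyr made up 0.171%, 0.253% and 0.165% in the muDX400, isotype and baseline CM3 tumours, against 1.04%, 1.03% and 1.09% in the B16F10 tumours.

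Tyrp1, which acts late in the synthesis of brown-black eumelanin, was lower in CM3 by less. It had 1933, 1744, 2243, 1941 and 1899 FPKM in the muDX400-treated CM3 tumours, against 3474, 2993, 2590.0, 3043 and 2673 FPKM in the muDX400-treated B16F10 tumours. At baseline it had 1649.5, 2276 and 2015 FPKM in CM3 and 2990.5, 2800.1 and 2558 FPKM in B16F10. The groups did not overlap in either arm, and the log2 difference was -0.59 ± 0.11 in the muDX400 arm (adjusted p = 0.000347) and -0.50 ± 0.14 at baseline (adjusted p = 0.0122). With the spread estimated over all 26 libraries, neither passed (adjusted p = 0.0793 in the muDX400 arm and 0.287 at baseline), and at baseline the call was also lost with no filter on low values (adjusted p = 0.0653). Tyrp1 in the isotype arm had 2146, 571, 459.9, 1502 and 1776 FPKM in CM3 and 2652, 2757, 2605, 3445 and 2084 FPKM in B16F10. The lowest values are those of CM3 replicates 2 and 3, which stood apart, and the highest CM3 tumour overlapped the lowest B16F10 one. The log2 difference there, -1.30 ± 0.44 (adjusted p = 0.0267), was -0.58 (adjusted p = 0.0702) without CM3 replicates 2 and 3 and -1.28 (adjusted p = 0.179) without B16F10 replicates 2, 4 and 5. Leaving out any 1 of CM3 isotype replicates 2 or 3, or of B16F10 isotype replicates 2 or 4, also ended the call, with differences of -1.07 and -0.99 without CM3 replicates 2 and 3 in turn (adjusted p = 0.0669 and 0.0505).

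Dct, dopachrome tautomerase, was the 1 enzyme with a difference above 0. At baseline it had 2892, 3503 and 3358 FPKM in CM3 and 2352, 2229 and 2170.2 FPKM in B16F10, every CM3 tumour above every B16F10 tumour, and the log2 difference was 0.53 ± 0.11 (adjusted p = 0.00286). In the muDX400 arm, where Dct ranged from 2332 to 2979 FPKM in CM3 and from 2046 to 2356 FPKM in B16F10, the ranges overlapped and the difference was 0.25 ± 0.10 (adjusted p = 0.0360). That call was lost when a trend with GC content and length was removed (0.01, adjusted p = 0.893) and with median-ratio scaling (0.20, adjusted p = 0.0811). With no filter, with the replicate block and with the spread over all 26 libraries, the call was lost too (adjusted p = 0.121, 0.0917 and 0.168). It was also lost without CM3 muDX400 replicate 1, 3 or 4, or B16F10 muDX400 replicate 3 or 4. The isotype difference was 0.23 ± 0.29 (adjusted p = 0.524), and 0.40 without the 5 libraries that stood apart (adjusted p = 0.221). Dct held 37.3%, 41.1% and 38.3% of the summed FPKM of the 10 genes in the muDX400, isotype and baseline CM3 tumours, against 22.1%, 22.8% and 24.1% in B16F10.

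Of the structural proteins of the melanosome, Mlana, the melanoma antigen MART-1, was lower in CM3 at baseline and in the muDX400 arm. It had 209, 221, 261, 219 and 186 FPKM in the muDX400-treated CM3 tumours and 697, 621, 762, 762 and 784 FPKM in the B16F10 ones, a log2 difference of -1.72 ± 0.10 (adjusted p = 1.13e-08). At baseline it had 306, 305 and 283 FPKM in CM3 and 744, 751 and 739 FPKM in B16F10, a log2 difference of -1.32 ± 0.07 (adjusted p = 4.08e-06). The groups were apart in both arms. In the isotype arm Mlana had 255, 685, 732, 174 and 205 FPKM in CM3, against 647, 669, 616, 800.5 and 522 FPKM in B16F10. CM3 replicates 2 and 3 lay among the B16F10 values and the other 3 CM3 tumours below them all. The difference of -0.92 ± 0.40 was not called (adjusted p = 0.0747), but it was -1.62 (adjusted p = 0.000149) without these 2 libraries and -1.36 (adjusted p = 0.00107) with the GC and length trend removed. It was also called without CM3 replicate 2 alone (-1.17, adjusted p = 0.0268) or replicate 3 alone (-1.20, adjusted p = 0.016).

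Pmel, the fibril protein and the melanoma antigen gp100, had 1904, 1478, 2042, 1724 and 1724 FPKM in the muDX400-treated CM3 tumours and 3355, 2470.2, 3009.9, 3879 and 3209 FPKM in the B16F10 ones. Under the isotype antibody it had 1908, 2027, 1833, 1561 and 1742 FPKM in CM3 and 2715, 4157, 3689.9, 2764 and 4506.5 FPKM in B16F10. All CM3 tumours were below all B16F10 tumours in both arms, by -0.84 ± 0.14 (adjusted p = 0.000105) and -0.95 ± 0.28 (adjusted p = 0.0146) on the log2 scale. Without B16F10 isotype replicates 2, 4 and 5 the isotype difference was -0.81 (adjusted p = 0.125), and with no filter or with the replicate block it was not called (adjusted p = 0.0658 and 0.0513). At baseline CM3 had 2091, 2551 and 2477 FPKM and B16F10 had 2609.7, 2571 and 2792 FPKM. The CM3 values were again all lower, yet the log2 difference of -0.17 ± 0.11 did not pass the test (adjusted p = 0.197).

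Slc45a2, a transporter of the melanosome membrane that is known to raise its pH, was lower in CM3 in all 3 arms. It had 146, 137, 171, 141 and 133 FPKM in the muDX400-treated CM3 tumours, against 577, 412, 459.9, 509 and 488 FPKM in the B16F10 ones. Isotype-treated tumours had 185, 89.9, 73.9, 113 and 158 FPKM in CM3 and 443, 542, 523, 453 and 504 FPKM in B16F10. At baseline it had 179, 209.6 and 202 FPKM in CM3 and 477, 481 and 485 FPKM in B16F10. No CM3 tumour reached the lowest B16F10 tumour. The log2 differences were -1.74 ± 0.10, -2.06 ± 0.25 and -1.29 ± 0.08 in the muDX400, isotype and baseline arms (adjusted p = 1.10e-08, 4.58e-05 and 8.16e-06).

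Oca2, the pink-eyed dilution protein, an anion channel of the melanosome, had 13.3, 8.51, 17.1, 11.6 and 10.2 FPKM in the muDX400-treated CM3 tumours, against 25.97, 26.2, 24.6, 28.9 and 25.9 FPKM in the B16F10 ones. Isotype-treated tumours had 10.4, 9.07, 8.93, 13.8 and 9.40 FPKM in CM3 and 17.2, 33.5, 21.7, 34.7 and 15.6 FPKM in B16F10. The models did not overlap in either arm, and the log2 differences were -1.09 ± 0.14 (adjusted p = 1.84e-05) and -1.12 ± 0.25 (adjusted p = 0.00289). At baseline the values were 10.8, 18.4 and 20.005 FPKM in CM3 and 20.3, 21.0 and 17.9 FPKM in B16F10, which overlapped, and the log2 difference of -0.29 ± 0.21 was not called (adjusted p = 0.236).

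Gpr143, the receptor of ocular albinism type 1 that controls melanosome size, was higher in CM3 in the muDX400 arm. It had 41.2, 37.0, 58.6, 50.8 and 41.9 FPKM there, against 32.95, 19.2, 26.2, 32.2 and 29.999 FPKM in the muDX400-treated B16F10 tumours. Every CM3 tumour was above every B16F10 tumour, and the log2 difference was 0.69 ± 0.16 (adjusted p = 0.00138). With the isotype antibody CM3 ranged from 27.2 to 73.1 FPKM and B16F10 from 26.6 to 32.96 FPKM, with a log2 difference of 0.54 ± 0.27 (adjusted p = 0.115), and of 0.16 without the 5 libraries (adjusted p = 0.356). The isotype difference was called with the spread estimated over all 26 libraries (0.54, adjusted p = 0.0328). At baseline the difference was 0.21 ± 0.17 (adjusted p = 0.295), and it was 0.42 (adjusted p = 0.00213) without CM3 baseline replicate 1.

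The regulators Mitf and Sox10 differed in opposite directions. Mitf, the master regulator of the melanocyte lineage, had 112, 91.6, 123, 126.01 and 117 FPKM in the muDX400-treated CM3 tumours and 60.4, 85.4, 69.1, 63.7 and 76.8 FPKM in the B16F10 ones. At baseline it had 129, 133 and 153 FPKM in CM3 and 88.9, 79.3 and 69.1 FPKM in B16F10. Every CM3 tumour was above every B16F10 tumour in both arms. The log2 difference was 0.67 ± 0.11 in the muDX400 arm (adjusted p = 0.000112) and 0.81 ± 0.11 at baseline (adjusted p = 0.000394, or 0.0754 with the spread over all 26 libraries). In the isotype arm Mitf had 114, 54.2, 54.0, 72.0 and 98.7 FPKM in CM3 and 63.5, 47.9, 43.8, 125 and 20.1 FPKM in B16F10. These values overlapped, the highest and lowest both being B16F10 libraries that stood apart, and the difference of 0.55 ± 0.41 was not called (adjusted p = 0.275). It was called without all 5 such libraries (0.81, adjusted p = 0.041).

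Sox10, the neural crest factor that acts on the Mitf promoter, had 117, 89.8, 124, 127 and 122 FPKM in the muDX400-treated CM3 tumours, against 212, 204, 203, 207 and 228 FPKM in the B16F10 ones. In the isotype arm it had 171, 106, 98.2, 85.4 and 156 FPKM in CM3 and 220.4, 285, 252, 214 and 335 FPKM in B16F10. The CM3 tumours were all lower in both arms, with log2 differences of -0.87 ± 0.09 (adjusted p = 2.72e-06) and -1.11 ± 0.24 (adjusted p = 0.00200). The isotype difference was -0.51 (adjusted p = 0.0695) with the GC and length trend removed and -0.84 (adjusted p = 0.0701) without the 5 libraries. At baseline Sox10 had 203, 174 and 180.5 FPKM in CM3 and 195, 199 and 222 FPKM in B16F10, overlapping, and the log2 difference was -0.15 ± 0.09 (adjusted p = 0.169).

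**Figure D3:**
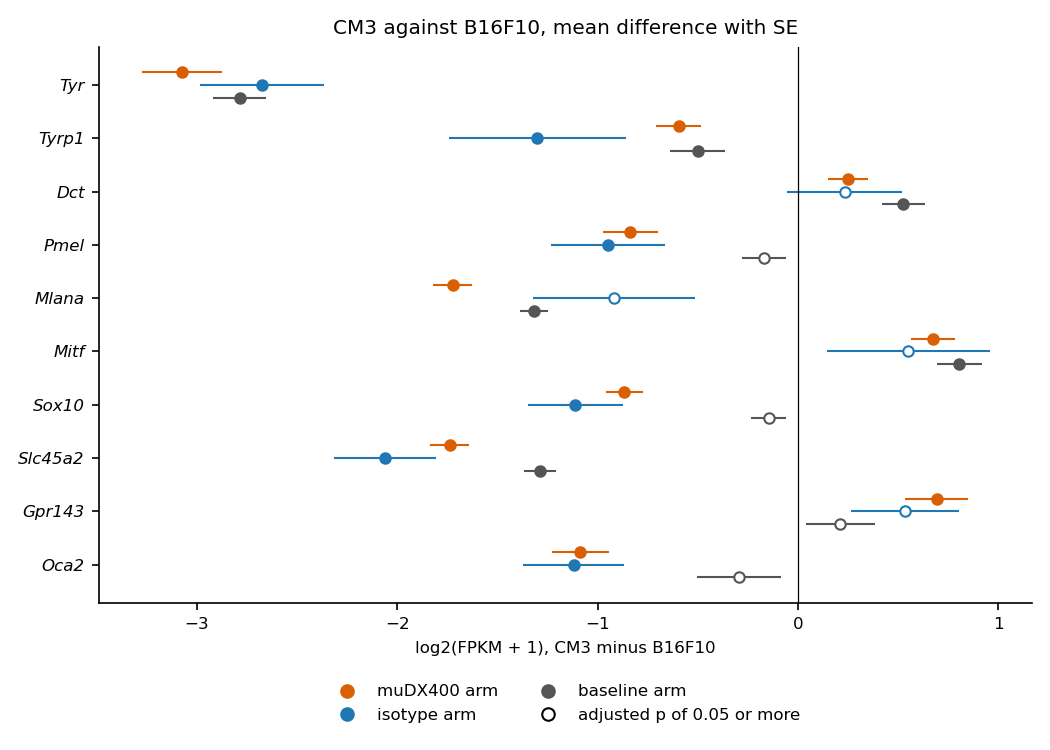
Log2 difference of each pigment gene, CM3 minus B16F10, on the log2(FPKM + 1) scale in the muDX400, isotype and baseline arms; bars are ± 1 SE from limma and filled points have an adjusted p under 0.05. Tyr, Slc45a2 and Tyrp1 are filled and below 0 in all 3 arms, while Dct, Mitf and Gpr143 lie above 0.

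The 3 arms thus shared the call for Tyr, Tyrp1 and Slc45a2, each lower in CM3 in every arm, with the Tyrp1 call lost in each arm under at least 1 alternative. Dct and Mitf were called higher in CM3 at baseline and in the muDX400 arm. The Dct call in the muDX400 arm and the Mitf call at baseline were each lost under at least 1 alternative. Oca2, Pmel and Sox10 were called lower in CM3 in both 8-day arms and not at baseline. The isotype calls of Pmel and Sox10 were each lost under at least 1 alternative. Between the isotype and baseline arms, the change in the gap is the interaction of model and growth given below, called for 0 of the 10 genes. Between the muDX400 and baseline arms, the change in the gap was not tested.

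The second question was whether muDX400 moved the pigment genes relative to the isotype antibody. In CM3, 0 of the 10 genes passed the adjusted threshold by limma (0% of the 12945 genes tested, the lowest adjusted p being 0.102), although 26.6% of all genes and 1 of the 10 members had an unadjusted p under 0.05. Without isotype replicate 4 of CM3, 4052 genes were called, and still 0 of the 10. With the spread estimated over all 26 libraries, 2532 genes were called, among them 1 of the 10, Tyrp1 (0.84, adjusted p = 0.0497). The member with an unadjusted p under 0.05 was Mitf, at 112, 91.6, 123, 126.01 and 117 FPKM in muDX400-treated tumours and 114, 54.2, 54.0, 72.0 and 98.7 FPKM in isotype-treated ones. The groups overlapped, with the highest isotype tumour inside the range of the treated ones, and the log2 difference was 0.59 ± 0.22 (adjusted p = 0.179). Tyrp1 differed by 0.84 ± 0.42 (adjusted p = 0.200) and Mlana by -0.64 ± 0.40 (adjusted p = 0.261). Both have their extremes in isotype replicates 2 and 3. Without these 2 libraries the difference was 0.28 for Mitf, 0.12 for Tyrp1 and 0.06 for Mlana. Tyr differed by -0.37 ± 0.31 (adjusted p = 0.391), and by -0.17 without them. Gpr143 differed by 0.11 ± 0.27, and by 0.56 without them (adjusted p = 0.421). Slc45a2 differed by 0.31 ± 0.23, and by -0.04 without them. Sox10 differed by -0.05 ± 0.20, and by -0.19 without them, and Oca2 by 0.20 ± 0.19, and by 0.09 without them. None of the 10 was called in that fit either. The median log2 difference of the 10 genes was 0.04, against 0.13 over all genes.

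In B16F10, likewise, 0 of the 10 genes passed (0% of 11446 genes, 351 of which had an unadjusted p under 0.05). Sox10 came nearest, with 212, 204, 203, 207 and 228 FPKM in muDX400-treated and 220.4, 285, 252, 214 and 335 FPKM in isotype-treated tumours. The ranges overlapped, and the log2 difference of -0.29 ± 0.13 had an adjusted p of 0.827. Mitf differed by 0.46 ± 0.37, its isotype values running from 20.1 to 125 FPKM. Without isotype replicates 2, 4 and 5 the difference was -0.16 for Sox10, 0.41 for Mitf and 0.43 for Oca2, which otherwise differed by 0.17 ± 0.21, and 0.17 for Dct, otherwise -0.07 ± 0.17; 0 of the 10 were called. The difference between the models in the effect of muDX400, tested as an interaction, was called for 0 of the 10 genes (0% of 13537 genes, 2261 with an unadjusted p under 0.05). Without isotype replicate 4 of CM3, 1806 genes were called in that interaction, and 0 of the 10.

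**Figure D4:**
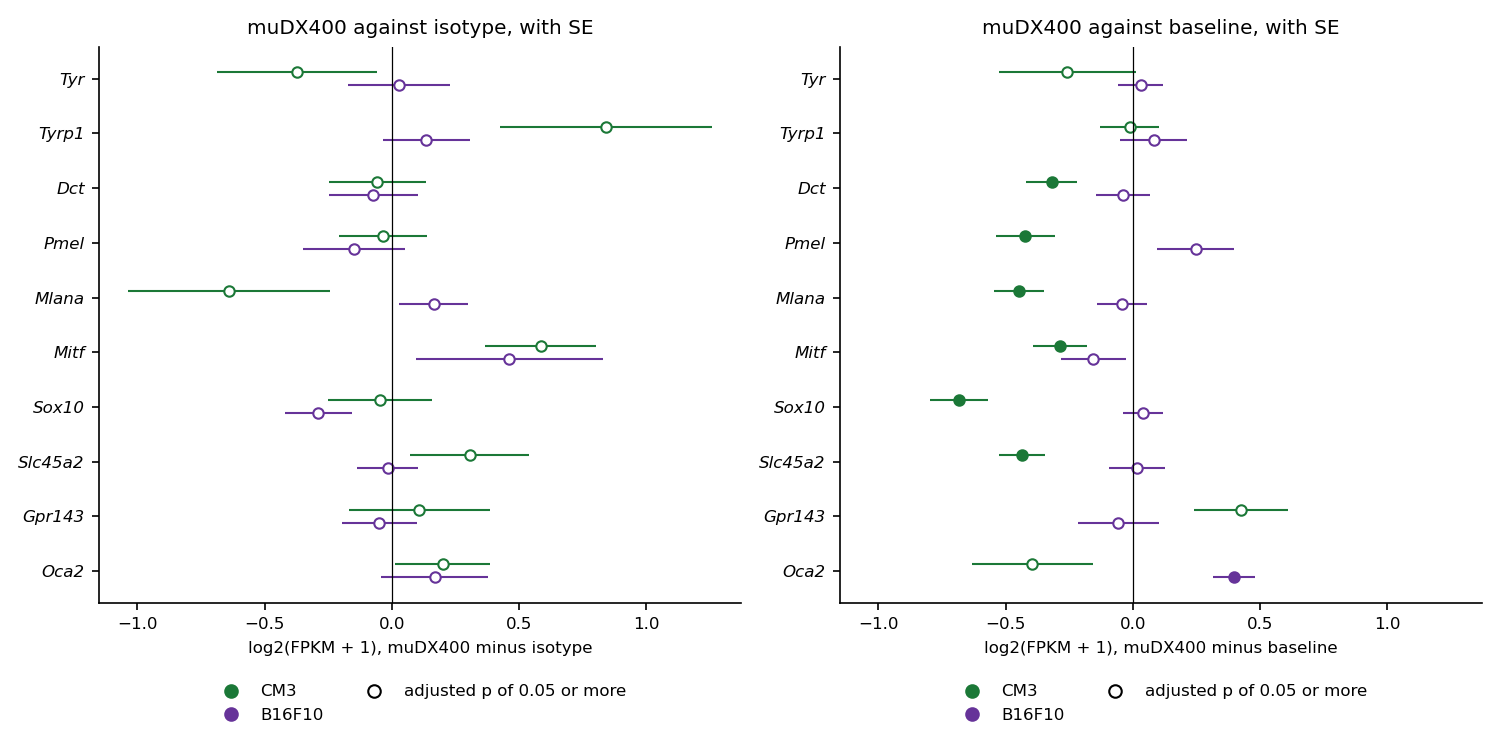
Log2 differences on the log2(FPKM + 1) scale for muDX400 minus isotype (left) and muDX400 minus baseline (right) in CM3 and B16F10; bars are ± 1 SE from limma and filled points have an adjusted p under 0.05. No point on the left is filled, while on the right 6 CM3 genes are filled below 0 and Oca2 in B16F10 above 0.

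The third question was how the 8-day tumours compared with the untreated baseline tumours. Between isotype-treated and baseline tumours, 0 of the 10 genes were called in CM3 (0.374% of 13091 genes, 0.107% higher and 0.267% lower) and 0 in B16F10 (0.933% of 11901 genes, 0.0084% higher and 0.924% lower), with 4 CM3 members at an unadjusted p under 0.05. Those 4 were all lower in isotype-treated CM3 tumours: Mitf by -0.87 ± 0.27 (adjusted p = 0.400), Slc45a2 by -0.74 ± 0.30, Sox10 by -0.64 ± 0.25 and Oca2 by -0.59 ± 0.24 on the log2 scale. With the spread estimated over all 26 libraries, 1305 genes were called in CM3, among them Slc45a2 and Sox10 (adjusted p = 0.0240 and 0.0329). Every isotype-treated CM3 tumour was below every baseline CM3 tumour for Mitf, Sox10 and Pmel, and the share of all genes so separated was not computed. Without CM3 isotype replicates 2 and 3 the differences were -0.56 for Mitf, -0.40 for Slc45a2, -0.49 for Sox10 and -0.49 for Oca2. Those of Tyrp1, Mlana and Gpr143, at -0.85 ± 0.54, 0.19 ± 0.51 and 0.32 ± 0.36 with all libraries, were -0.13, -0.51 and -0.14, and 0 of the 10 were called. In B16F10 the largest difference was -0.62 ± 0.47 for Mitf, and without isotype replicates 2, 4 and 5 it was -0.57. There the difference of Dct was 0.03 ± 0.23 with all libraries and -0.21 without them, and that of Pmel 0.39 ± 0.24 with all libraries and 0.25 without them. The interaction of model and growth was called for none of the 10 (0.261% of 13806 genes), Sox10 coming nearest at -0.97 ± 0.32 (adjusted p = 0.498). In CM3, block and arm cannot be told apart in the comparison with baseline, which also enters this interaction.

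Against baseline, the muDX400-treated CM3 tumours had 6 of the 10 genes called, all lower (55.5% of 13424 genes were called, 26.8% higher and 28.7% lower), a comparison added after the data were seen. Sox10 differed most, with 117, 89.8, 124, 127 and 122 FPKM in muDX400-treated and 203, 174 and 180.5 FPKM in baseline CM3 tumours. Every treated tumour was lower, and the log2 difference was -0.68 ± 0.11 (adjusted p = 0.00146). Mlana followed at -0.45 ± 0.10 (adjusted p = 0.00488), Slc45a2 at -0.44 ± 0.09 (adjusted p = 0.00394) and Pmel at -0.42 ± 0.12 (adjusted p = 0.0135). Dct differed by -0.32 ± 0.10 (adjusted p = 0.0250) and Mitf by -0.29 ± 0.11 (adjusted p = 0.0486). The values of Dct overlapped between the arms, and those of the other 5 did not. The share of all genes without overlap was not computed, so this count has no background beside it. The median over the 10 genes was -0.36, against -0.02 over all genes tested. The baseline CM3 tumours carry sample numbers from another block than the treated ones, so block and arm cannot be told apart here.

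Single libraries decided some of these calls. The Dct call was lost without CM3 baseline replicate 2 or 3 or muDX400 replicate 5, the Mitf call without any of the 3 baseline replicates or muDX400 replicate 1 or 5, and the Pmel call without baseline replicate 2. Oca2 was called without baseline replicate 1 (-0.65, adjusted p = 0.0365). Markers of other cells moved with these genes: the summed FPKM of T cell markers was 67.4 to 79.5 in muDX400-treated and 14.5 to 48.0 in baseline CM3 tumours. Macrophage markers summed to 789.9 to 1116 FPKM in muDX400-treated and 168 to 451 FPKM in baseline tumours, and proliferation genes to 65.5 to 126 FPKM in muDX400-treated and 237 to 349.7 FPKM in baseline tumours. All 8 T cell and all 7 macrophage genes tested were called higher and all 8 proliferation genes lower in the muDX400-treated tumours. Their part in the lower pigment gene levels, and that of the block of sample numbers, was not tested.

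In B16F10, Oca2 alone was called against baseline (2.18% of 11875 genes called, 0.211% higher). It had 25.97, 26.2, 24.6, 28.9 and 25.9 FPKM in muDX400-treated tumours and 20.3, 21.0 and 17.9 FPKM in baseline tumours. All treated tumours were higher, by 0.40 ± 0.08 on the log2 scale (adjusted p = 0.0420), and the call was lost in 7 of 8 fits that left out 1 library (adjusted p = 0.0601 to 0.16 in those 7), being kept without muDX400 replicate 2. The comparisons of muDX400 and of isotype with baseline share the baseline tumours.

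**Figure D5:**
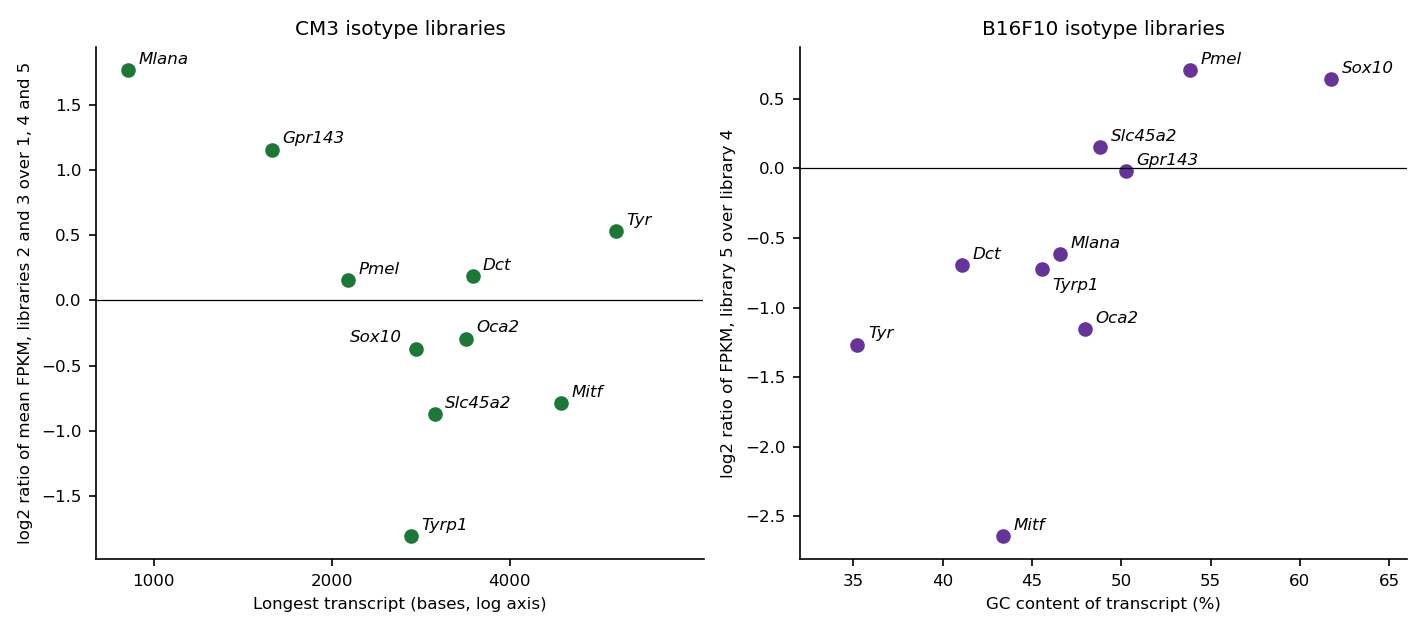
Left, log2 ratio of the geometric mean FPKM of CM3 isotype replicates 2 and 3 to that of replicates 1, 4 and 5 for each pigment gene against transcript length. Right, log2 ratio of B16F10 isotype replicate 5 to replicate 4 against GC content of the transcript. On the left the shortest transcript, Mlana, is the highest; on the right Sox10 and Pmel, the most GC-rich, are the highest and Mitf the lowest.

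The isotype arms held the widest spread of most pigment genes (the plot of library ratios). The SD of log2 levels was wider in another arm for Oca2 and Pmel in CM3 and for Gpr143 and Slc45a2 in B16F10. For Oca2 in CM3 it was 0.24 in the isotype and 0.45 in the baseline arm. For Gpr143 in B16F10 it was 0.12 in the isotype and 0.31 in the muDX400 arm. In CM3, by geometric means, replicates 2 and 3 had 3.39 times the Mlana and 2.23 times the Gpr143 level of replicates 1, 4 and 5, and 0.287 times the Tyrp1 level. Mlana and Gpr143 have the shortest transcripts of the 10, at 906 and 1586 bases. Slc45a2 and Mitf stood at 0.547 and 0.580 times, and Tyr, the longest transcript at 6042 bases, at 1.45 times, outside that order. In B16F10, replicate 5 had Mitf lower than replicate 4 by -2.64 on the log2 scale, Tyr by -1.27 and Oca2 by -1.15, while Pmel and Sox10 were higher by 0.71 and 0.64. GC content was 35.2% in Tyr and 43.4% in Mitf, against 53.8% in Pmel and 61.8% in Sox10. Removing a trend with GC content and length from each library reduced the SD of log2 values of Mitf in isotype-treated B16F10 tumours to 0.66, against 0.93 as deposited, and of Mlana in isotype-treated CM3 tumours to 0.66, against 0.98. It left Tyrp1 in CM3 at 1.04, against 1.01.

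The wider pathway was read from gene lists. In the baseline and muDX400 arms no library stood apart by FPKM total or by its slope with transcript length or GC content. Mainly the muDX400 arm of CM3 against B16F10 is given. In that arm CM3 replicate 2 was flagged for Sox10, at 89.8 FPKM against 117 to 127 FPKM in the others. Counts are to be read against the 50% of all genes called higher and 33.7% called lower in that arm. A gene that averaged under 1 FPKM in B16F10 entered the test through its level in CM3, so counts are over genes averaging 1 FPKM or more in both models. Of 6 such melanocyte regulators and receptors, 4 were higher and 1 lower in CM3, and 2 more entered the test through CM3 alone. Kit, the receptor tyrosine kinase of migrating melanoblasts, averaged 24.8 FPKM in CM3 and 3.48 FPKM in B16F10, a log2 difference of 2.55 ± 0.15. Foxd3, a neural crest factor, averaged 7.98 FPKM in CM3 and 0.0117 FPKM in B16F10, and is one of those 2. The 1 lower gene was Mc1r, the receptor for melanocyte-stimulating hormone, at 37.4 FPKM in CM3 and 95.4 FPKM in B16F10. In the baseline arm 5 of 6 were higher and 0 lower (41.2% and 32.7% of all genes), Mc1r not being called there.

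Of 25 genes of melanosome biogenesis and transport, 9 were higher and 10 lower in CM3, with a median log2 difference of -0.07, against 0.25 over all genes. Among the lower genes were Slc24a5, a melanosomal cation exchanger (50.4 FPKM in CM3 and 283 FPKM in B16F10, -2.47 ± 0.12), and Rab38, which carries Tyr and Tyrp1 to the melanosome (54.9 FPKM in CM3 and 191 FPKM in B16F10, -1.79 ± 0.10). Tpcn2, an ion channel of the organelle, was higher (17.8 FPKM in CM3 and 3.17 FPKM in B16F10), as was Lyst, which governs lysosome size (12.4 FPKM in CM3 and 3.48 FPKM in B16F10). Known targets of MITF outside the pigment genes divided into 3 higher and 3 lower of 6, with a median of -0.26. Of the ligands of melanocyte receptors, 1 gene averaged 1 FPKM or more in both models and was called higher, and another entered the test through CM3 alone. Met, the receptor for hepatocyte growth factor, averaged 30.5 FPKM in CM3 and 232 FPKM in B16F10 (-2.88 ± 0.10), while Bcl2, a survival factor, averaged 17.6 FPKM in CM3 and 3.62 FPKM in B16F10 (2.01 on the log2 scale).

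Neural crest and Schwann cell genes, which share Sox10 with melanocytes, were also listed. Among those averaging 1 FPKM or more in both models, 3 of 6 neural crest genes were higher and 1 lower in CM3, and 3 of 4 Schwann cell genes were higher and 1 lower, counts to be read against the 50% and 33.7% of all genes. In each list 1 further gene entered the test through CM3 alone. At baseline 4 of 6 neural crest genes were higher and 2 lower, and 2 of 4 Schwann cell genes were higher and 0 lower. Erbb3, the neuregulin receptor, averaged 51.6 FPKM in CM3 and 7.26 FPKM in B16F10. The lower Schwann cell gene was Mbp, a myelin protein, at 35.3 FPKM in CM3 and 83.9 FPKM in B16F10. Markers of other cells also differed: of genes averaging 1 FPKM or more in both models, 4 of 4 T cell, 7 of 7 macrophage, 2 of 2 mast cell, 2 of 2 osteoclast, 5 of 5 fibroblast and 1 of 5 endothelial genes were called higher in CM3, and 7 of 8 proliferation genes lower. Another 4 T cell, 4 mast cell, 3 osteoclast and 1 fibroblast genes entered the test through CM3 alone. In the isotype and baseline arms 1 of 7 macrophage genes was called higher in each. Of 5 endothelial genes, 3 were called lower in CM3 in the isotype arm and 5 at baseline, with 0 higher in both. Fibroblast genes called higher were 1 of 6 in the isotype arm and 5 of 6 at baseline. Proliferation genes called lower were 5 of 8 and 7 of 8. Of all genes, 28.4% were higher and 23.2% lower in the isotype arm, and 41.2% and 32.7% at baseline. T cell markers summed to 67.4 to 79.5 FPKM in muDX400-treated CM3 tumours, against 3.27 to 19.5 FPKM in muDX400-treated B16F10 tumours, and proliferation genes to 65.5 to 126 FPKM in CM3, against 455 to 516 FPKM in B16F10. Their part in the differences of the pigment genes was not tested. Between muDX400 and isotype tumours none of the lists had a called gene in either model. There 0% of all 12945 genes in CM3 and 0% of all 11446 genes in B16F10 were called, so this is no trait of the lists.

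The genes whose group means across the 33 groups were most like the mean of the 10 pigment genes were looked for among the 16999 genes whose highest group mean reached 1 FPKM, by Pearson's r of log2(FPKM + 1). The 8 nearest were Syt9, Trpm1, Tspan10, Bfsp2, Mc1r, Pde11a, S100b and Cntfr, with r of 0.99 to 0.998. Since the levels are high in CM3 and B16F10 and near 0 elsewhere, these values rest on the contrast of 2 models with 9, and they describe it only. Tspan10, a tetraspanin, averaged 121 FPKM in isotype-treated CM3 tumours and 378 FPKM in isotype-treated B16F10 tumours, and Trpm1, an ion channel of melanocytes, 117 FPKM in CM3 and 346 FPKM in B16F10.

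In the other 9 models every pigment gene but Mitf stayed at or below 2.38 FPKM in all 117 libraries. Mitf was the exception, at 1.38 to 8.97 FPKM, and its model means were 1.97 in 4T1, 6.82 in CT26, 4.08 in EMT6, 3.15 in LL2, 2.24 in MB49, 5.11 in MBT2, 3.43 in MC38, 5.17 in RENCA and 4.31 FPKM in TC1. CM3 averaged 106 FPKM and B16F10 68.7 FPKM over their 13 tumours. The lowest of the CM3 and B16F10 libraries was 2.24 times the highest background library for Mitf and 892 times for Dct. Mitf is also known to act in mast cells and osteoclasts, and the summed FPKM of mast cell markers had a median of 208 in RENCA, 119 in MBT2 and 110 in CT26, against 4.16 in MC38. Osteoclast markers had a median sum of 409 FPKM in RENCA, 21.1 FPKM in MBT2 and 14.8 FPKM in CT26, the model with the highest mean of Mitf, against 94.8 FPKM in 4T1, the model with the lowest. Their part in the Mitf level was not tested. Between muDX400 and isotype tumours, Mitf was called in none of the 9 models by limma, its log2 differences running from -0.28 in CT26 (adjusted p = 0.242) to 0.41 in MC38 (adjusted p = 0.132), where 0.339% and 27.3% of genes were called. In RENCA 2.57% and in TC1 0.0802% of genes were called, and in the remaining 5 models 0%.

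In 9 of these 117 libraries a gene other than Mitf reached 1 FPKM. Tyrp1, Dct and Pmel did so together in 3: baseline replicate 1 of EMT6 (2.27, 1.86 and 2.29 FPKM), baseline replicate 1 of 4T1 (1.41, 2.12 and 1.43 FPKM) and isotype replicate 1 of CT26 (1.25, 1.89 and 1.38 FPKM). Pmel alone did so in 3 libraries and Sox10 alone in 3, the highest being Sox10 at 2.38 FPKM in muDX400 replicate 2 of MC38. In the block of sample numbers that holds the baseline CM3 tumours, all 21 libraries of other models were above 0 for Tyrp1 and Dct, with medians of 0.375 and 0.426 FPKM. In the block that holds B16F10, the 16 libraries of other models had medians of 0.116 FPKM for Tyrp1 and 0.0667 FPKM for Dct. In the block that holds the 8-day CM3 tumours, both medians over 40 libraries of other models were 0, as they were over the 40 libraries of TC1, EMT6, LL2 and MC38 in the block with neither CM3 nor B16F10. The highest Tyrp1 value of the baseline block, 2.27 FPKM, was 0.115% of the mean of the baseline CM3 tumours. In 7 of 7 models with baseline libraries in that block, every baseline library was above the median of its 8-day libraries for both genes. Block and arm cannot be told apart in these 7. All RENCA libraries fall in the block of B16F10. In RENCA, Tyrp1 was 0.0954, 0.0455 and 0.127 FPKM at baseline and 0 to 0.348 FPKM in the 8-day tumours. Dct in RENCA was 0.133, 0.0483 and 0.0614 FPKM at baseline and 0 to 0.333 FPKM in the 8-day tumours. The cause was not tested.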

How the data were processed

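Total RNA of tumours was prepared with a ribosomal-RNA-depleting stranded kit and sequenced as 50 base paired-end reads, per the labels' protocols. The authors deposited a single table of FPKM values per Ensembl gene ID. The aligner, quantifier, genome build and annotation were not given in the sources used here. As FPKM are not counts, no count test was used. Symbols were matched for 54079 of 54232 IDs. Levels were taken as log2(FPKM + 1), a pseudocount of 1, and genes were kept at 1 FPKM or more in at least 5 libraries (3 in comparisons with baseline). Each comparison was fitted on its own groups with limma 3.58.1 (trend, R 4.3.3), 2-sided, and p-values were adjusted by Benjamini-Hochberg over all genes tested, with a threshold of 0.05. SEs are limma's moderated ones. The procedure was tested on simulated data. Changes of 1 on the log2 scale were recovered for 23% of changed genes in CM3 isotype against baseline. The share was 28% in the interaction with muDX400 and 19% in that with growth, against 40% to 94% in the other simulated comparisons. A gene not called there may still differ. Of the calls, 3.10% to 7.14% were false. The 10 members were named in every comparison, of other lists up to 4 called genes with the largest difference, and the 8 genes nearest in pattern; Mc1r and Mbp, where outside this rule, were named after their values were seen. The members, the lists, and CM3 and B16F10 as the models followed, were chosen with earlier results of these data known. Alternatives were other pseudocounts, filters, scalings, spreads, a replicate block and leaving out libraries. Transcript length and GC content came from GENCODE M21 (GRCm38), which may differ from the annotation behind the FPKM values. Depth is an estimate from low FPKM values, and no counting intervals are given.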

Additional observations from a re-analysis of the deposited data

Results flagged for a closer look

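In 58 groups of 5 libraries examined for a library far from the others, 2 held one by Dixon's test, where chance gives about 1 in 20. Gpr143 had 32.96 FPKM in isotype replicate 2 of B16F10, against 26.6 to 28.3 FPKM in the other 4 libraries of that group. Sox10 had 89.8 FPKM in muDX400 replicate 2 of CM3, the lowest of its group, against 117 to 127 FPKM in the other 4.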

How the results depend on the processing

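Of 502 alternative values for the 29 differences called as reported, 435 kept the call, 67 lost it and 0 reversed; of 1648 for differences not called, 17 became called. Members called moved as follows. With the spread shared over the 26 libraries, 1 was called in CM3 muDX400 against isotype, 2 in CM3 isotype against baseline, 1 in CM3 muDX400 against baseline and 0 in B16F10 muDX400 against baseline. CM3 muDX400 against baseline gave 3 with no filter, 1 with the replicate block and 3 to 6 with 1 replicate left out; B16F10 muDX400 against baseline gave 0 with a pseudocount of 0.1, with the replicate block, or with the block and the GC and length trends removed, and 0 to 1 with 1 replicate left out. Elsewhere the replicate block gave 9 in the muDX400 arm, 5 in the isotype arm and 6 in the baseline arm of CM3 against B16F10, and 0 in the others. Same-numbered libraries of the 8-day arms correlated at -0.51 to 0.32 within a model, so the numbers do not pair them. With 1 replicate left out, 9 to 10, 5 to 6 and 6 to 7 were called in those 3 arms.

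Counts over all genes moved more. CM3 muDX400 against isotype gave 0 as reported, 2532 with the shared spread and 4052 without CM3 isotype replicate 4, and the interaction with model gave 1806 without it. CM3 isotype against baseline gave 49 as reported, 0 to 57 with 1 replicate left out and 1305 with the shared spread. B16F10 isotype against baseline gave 111 as reported, 42 with the block and 365 with no filter, B16F10 muDX400 against baseline 259, against 0 with the block and trends removed and 397 with trends removed alone, and CM3 muDX400 against baseline 7444, against 2842 with the shared spread. The interaction of model and growth gave 36 as reported, 4 to 111 over alternatives. The cause was not tested. In the 9 other models 0 members were called with no filter and with a pseudocount of 0.1. At depths of 9.77 to 51.3 M fragments, values near 0 are the least certain, in the other models and for Foxd3 in B16F10.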
